A study of Mus musculus with 8 samples.

Results

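The genes described here encode the machinery that copies the genome in S phase and the proteins that watch over the copying. The set has 46 genes of the 36811 gene models in the table. They were chosen by symbol, from known function in origin licensing, the replicative helicase, the polymerases, nucleotide synthesis, chromatin assembly and the replication checkpoint, with earlier results of these data known. All 46 were matched to 1 Ensembl gene model each. They were followed in regulatory T (Treg) cells, the Foxp3-expressing CD4 T cells that restrain immune responses, from spleens of 12 to 13 week old C57BL/6 mice, sequenced in bulk with the SmartSeq2 method. In the study's LO group, Foxp3-GFP+ cells were sorted for low signal of a red fluorescent Bach2 reporter (Bach2-RFP), and in its HI group for high signal. Both groups carry the same genotype, Foxp3EGFP-DTR Bach2tdRFP/+. The Foxp3 allele drives a green fluorescent protein together with a diphtheria toxin receptor in cells that express Foxp3, and 1 Bach2 allele carries the red reporter. LO and HI have 4 libraries each, F1 and F2 labelled female and M1 and M2 labelled male. Whether each library is a different animal is not labelled, and a p-value here is therefore set by the variation among these 8 libraries, which may be technical.

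Eukaryotic cells prepare their origins in G1 phase, when the origin recognition complex (ORC) with Cdc6 and Cdt1 loads the MCM helicase onto DNA, and geminin (Gmnn) then binds Cdt1 so that no origin is loaded again in the same cycle. In S phase the loaded helicase is activated by Cdc45, the GINS complex and Mcm10, polymerase alpha with primase lays down primers, and polymerases delta and epsilon extend them with the clamp PCNA. E2F transcription factors drive many of these genes at the G1/S transition. Most Treg cells of the spleen are quiescent, and an activated fraction divides.

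The sort and the depth bear on every value below. Bach2 (ENSMUSG00000040270), the gene of the sorted reporter, averaged 0.691 ± 0.187 FPKM in LO and 15.6 ± 5.56 FPKM in HI libraries (SD, n = 4 each), and no LO library reached the lowest HI library. FPKM counts sequenced fragments, scaled to transcript length and to the size of the library. Foxp3 (ENSMUSG00000039521) averaged 14.7 ± 3.97 FPKM in LO and 14.2 ± 0.783 FPKM in HI libraries. All 7 T cell markers on the list were detected. The 6 Treg markers summed to 2046 to 3044 FPKM in LO and 1380.05 to 1619 FPKM in HI libraries. Of the 6, 3 were called higher (Ikzf2, Ctla4 and Tnfrsf18) and 1 lower (Il2ra). Tnfrsf18 alone made up most of these sums, at 1709 to 2666 FPKM in LO and 1105 to 1349.5 FPKM in HI libraries. Depth relative to HI F1, read from how low values step, was 0.818 to 5.27 in the LO libraries and 0.636 to 1.27 in the HI libraries. LO M2 was the deepest library and HI M1 the shallowest. Markers of other cells differed between the groups too. The summed FPKM of 10 B cell markers ranged from 78.2 to 107.6 in LO and from 168 to 273 in HI libraries, and 4 of the 9 tested were called lower. Pax5, which defines B cells, was listed at 0 in all 4 LO libraries and in HI M1. The 5 plasma cell markers summed to 123 to 230.4 in LO and 46.5 to 78.0 in HI libraries, and 2 of the 4 tested were called higher. These 2, Jchain and Txndc5, made up most of the sums. Mzb1 did not rise with them, at 1.93 to 8.29 FPKM in LO and 4.14 to 13.3 FPKM in HI libraries. Tnfrsf17 was listed at 0 in 3 LO libraries and in all HI libraries. The 5 NK cell markers summed to 37.4 to 85.0 FPKM in LO and 121 to 205 FPKM in HI libraries, with 2 of the 3 tested called lower, and Ncr1 was listed at 0 in 3 LO libraries and 1 HI library. Summed myeloid markers were at 100.3 to 261 FPKM in LO and 145 to 329 FPKM in HI libraries (2 of 8 tested lower), dendritic markers at 132 to 241 in LO and 213 to 289 in HI libraries (1 of 4 lower), erythroid markers at 17.8 to 457 in LO and 46.7 to 279 in HI libraries (1 of 7 lower) and CD8 T cell markers at 24.2 to 33.6 in LO and 36.8 to 46.5 in HI libraries (0 of 1 passed). Single genes made up most of some sums. Tyrobp was at 36.2 to 84.4 FPKM in LO and 116 to 197 FPKM in HI libraries. No other NK cell marker exceeded 2.47 FPKM in LO or 6.75 FPKM in HI libraries. Cd8b1 of the CD8 markers was at 23.8 to 33.6 in LO and 34.7 to 46.1 in HI libraries. Bst2 of the dendritic markers was at 125 to 233 in LO and 187 to 237 in HI libraries. The part of these other cells in the results below was not tested.

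Of the 46 genes, 44 passed the low-value filter (4 or more libraries with FPKM of 1 or higher) and were tested with limma on log2(FPKM + 1), with p-values adjusted over all 11260 genes tested. The checkpoint kinase gene Chek1 and the recombination gene Brca2 did not pass it. Ribonucleotide reductase Rrm2, the licensing inhibitor Gmnn, the polymerase alpha subunit Pola1, the helicase subunit Mcm3, Rrm1, thymidylate synthase Tyms and the helicase activator Mcm10 were higher in LO cells, 7 of 44 (15.9%), where 4.65% of all genes tested were called higher. Since the set was put together with earlier results known, this comparison is a description. None was called lower, where 3.64% of all genes were, and no member had a negative difference with an unadjusted p below 0.05. The other 37 did not pass the test. An unadjusted p below 0.05 was found in 17 of the 44 members and in 2354 of all 11260 genes tested (limma). In 10 of the 44 all 4 LO libraries lay above all 4 HI libraries, against 7.90% of all genes, and in 0 of the 44 was every LO library the lower, against 7.18% of all genes. The difference was positive in 37 members and negative in 7, and its median over the 44 was 0.37 on the log2 scale, against -0.03 over all genes tested. These are bulk libraries, so that more cycling cells in a sample and more RNA per cell cannot be told apart.

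**Figure D1:**
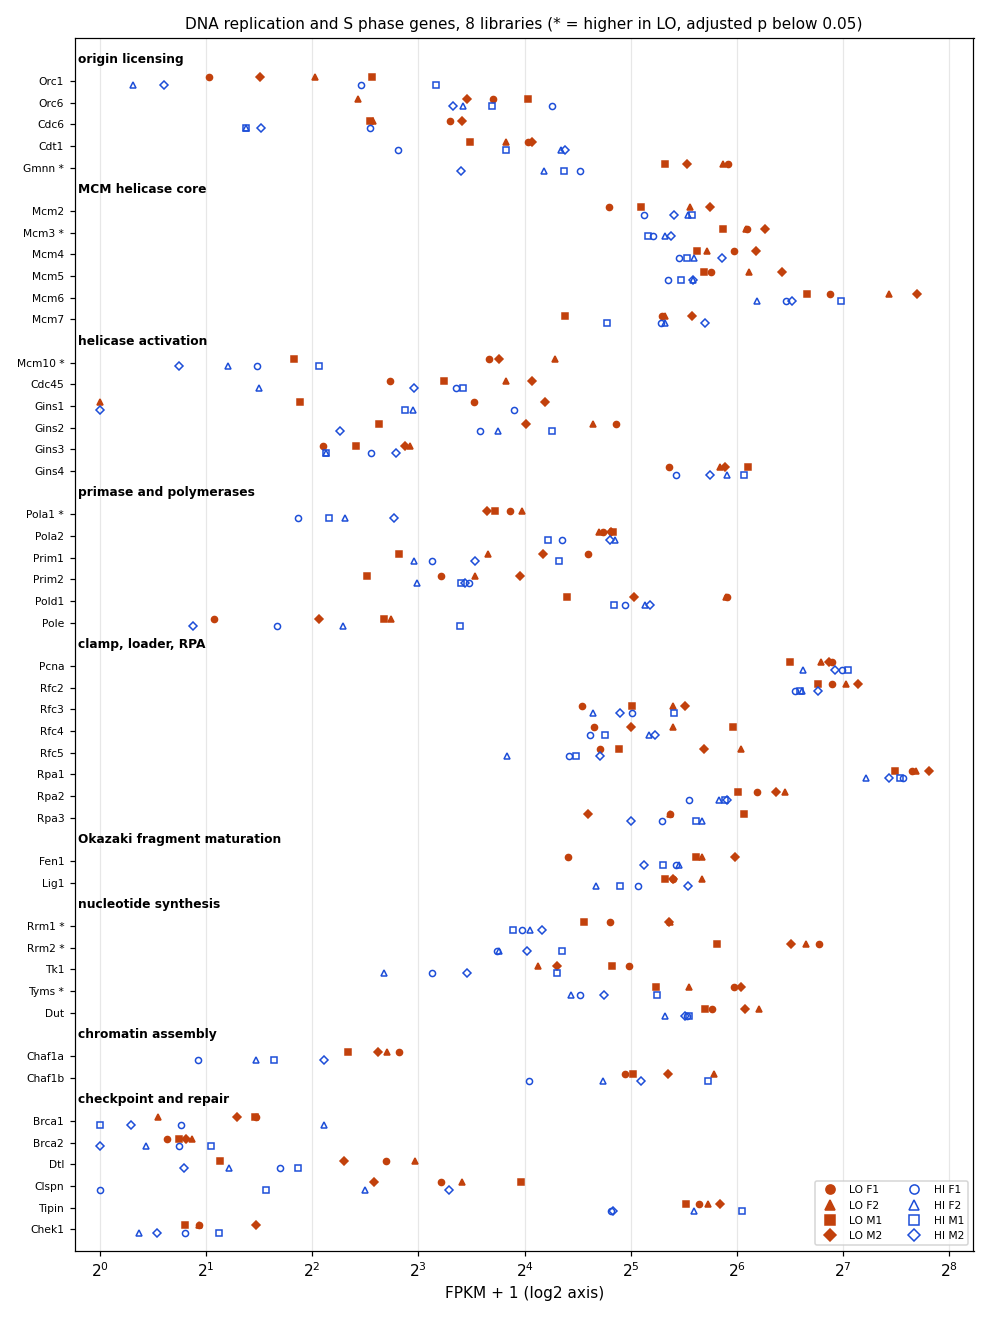
FPKM + 1 on a log2 axis in every library for the 46 replication genes, ordered by functional step. Filled orange points are the 4 LO libraries and open blue points, drawn below them in each row, the 4 HI libraries; the groups are apart in Rrm2, Gmnn and Pola1 and lie over each other in Pcna, Gins4 and Mcm2.

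Promoter sequences of 4 members, the 200 bases before the start of transcription, are printed as examples. They were picked by call and motif match and do not stand for the set. They are RefSeq sequences on build GRCm38.p6, written 5′ to 3′ on the strand of the gene, while the expression table names the builds NCBIM37 and mm9 and was matched by gene only. Pola1 and Rrm2 are called members with and without a match to the E2F-type motif, and Mcm6 and Orc1 are uncalled members with matches. Capitals mark the E2F-type motif (TTTCCCGC, TTTGGCGC, TTTGCCGC or TTTCGCGC, either strand) and CCAAT or its reverse complement ATTGG.
Pola1, chrX:93632156-93632355, minus strand: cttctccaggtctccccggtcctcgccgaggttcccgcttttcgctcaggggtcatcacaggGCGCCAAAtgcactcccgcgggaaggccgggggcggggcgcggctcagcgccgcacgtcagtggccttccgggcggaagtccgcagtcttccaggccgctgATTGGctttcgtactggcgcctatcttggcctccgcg
Rrm2, chr12:24708054-24708253, plus strand: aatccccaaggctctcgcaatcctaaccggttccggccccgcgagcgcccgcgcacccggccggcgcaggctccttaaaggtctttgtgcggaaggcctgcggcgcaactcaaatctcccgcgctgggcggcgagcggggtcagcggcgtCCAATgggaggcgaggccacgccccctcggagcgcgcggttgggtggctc
Mcm6, chr1:128359706-128359905, minus strand: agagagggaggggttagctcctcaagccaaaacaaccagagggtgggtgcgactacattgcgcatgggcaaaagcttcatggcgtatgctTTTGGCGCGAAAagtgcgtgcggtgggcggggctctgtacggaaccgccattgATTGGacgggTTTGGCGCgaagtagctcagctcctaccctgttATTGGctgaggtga
Orc1, chr4:108579254-108579453, plus strand: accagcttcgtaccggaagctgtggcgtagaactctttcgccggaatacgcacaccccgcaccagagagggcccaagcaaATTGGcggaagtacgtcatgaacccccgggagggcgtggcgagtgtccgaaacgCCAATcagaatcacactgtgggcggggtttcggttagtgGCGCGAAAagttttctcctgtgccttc
The window of Pola1 holds 1 E2F-type match and that of Rrm2 holds 0. Mcm6 has 3, of which the first pair overlaps, and Orc1 has 1. RefSeq promoters of 300 bases (250 before to 50 after the start) were given for 37 of the 46 members, 41 promoters in all. An E2F-type motif stood in 15 of the 41 (36.6%), against 2.26% of all 32851 promoters. Its share was 33.3% in the called members, 2 of 6, and 36.4% in the uncalled ones, 12 of 33. With 6 promoters of called members, these shares cannot show whether called and uncalled members differ or are alike. CCAAT, searched on both strands, stood in 58.5% of member promoters and 37.4% of all promoters, and the CHR-type element TTTGAA, also on both strands, in 9.76% of member promoters and 17.9% of all. In the promoters of 18 mitosis genes the E2F-type share was 5.56% and the CHR-type share 72.2%. A match describes the letters and does not show binding.

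The groups of 4 values below are given in the order F1, F2, M1 and M2. Differences are LO minus HI on the log2(FPKM + 1) scale, which understates the change of genes at low level, and folds are ratios of mean FPKM. Steps are taken in the order of the replication cycle.

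Of the 5 origin recognition and licensing genes, 1 rose and 4 did not pass the test. Gmnn (ENSMUSG00000006715) encodes geminin, the inhibitor of Cdt1 that is present from S phase to mitosis. It stood at 59.3, 57.4, 39.1 and 45.2 FPKM in LO libraries, against 21.9, 17.2, 19.7 and 9.57 FPKM in HI libraries. All LO libraries lay above all HI libraries, and HI M2 was the lowest of the 8. Mean levels of 50.3 ± 9.70 FPKM in LO and 17.1 ± 5.37 FPKM in HI libraries (SD, n = 4 each) gave a 2.94-fold difference (1.54 on the log2 scale, SE 0.28, limma adjusted p = 0.00743). Cdc6, the ATPase that joins ORC to load the helicase, was at 8.86, 4.95, 4.83 and 9.62 FPKM in LO and 4.84, 1.59, 1.59 and 1.86 FPKM in HI libraries. HI F1 lay beside the lowest LO libraries, and the other HI libraries lay below all of them. With a difference of 1.26 (SE 0.39) Cdc6 did not pass (limma adjusted p = 0.0851), and without HI F1 it did (limma, 1.54, adjusted p = 0.0386). In steps of its smallest value, scaled to each library, Cdc6 stood at 7.17, 4.0, 4.77 and 50.15 in LO libraries. In HI libraries it stood at 4.78, 2.0, 1.0 and 1.5 steps, so that its HI levels may rest on few reads. Orc6, the smallest ORC subunit, had 12.1, 4.41, 15.4 and 9.97 FPKM in LO and 18.1, 9.68, 11.9 and 9.04 FPKM in HI libraries, with groups that overlapped and a negative difference of -0.27 (95% interval -1.12 to 0.59, limma adjusted p = 0.757).

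Cdt1, the loading factor that geminin holds, had one of the largest p-values of the set. Its values were 15.4, 13.2, 10.2 and 15.8 FPKM in LO libraries and 6.002, 19.3, 13.2 and 19.8 FPKM in HI libraries. The HI libraries spread on both sides of the LO libraries, with HI F1 the lowest of all 8. The difference was 0.02 with a 95% interval of -0.80 to 0.83 (limma adjusted p = 0.989), which keeps it below 2-fold in either direction. Orc1, the ATPase subunit of ORC that is made anew in each G1 phase, was low, between 1.04 and 4.92 FPKM in LO and between 0.242 and 7.997 FPKM in HI libraries.

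Within a library, the log2 ratio of 2 partners of 1 step, formed from FPKM + 1, depends little on how the library was scaled. The 3 pairs compared were taken from members chosen with earlier results of these data known, so that their p-values are descriptions. For Cdc6 over Orc6 the ratio was -0.40, 0.14, -1.49 and -0.05 in LO libraries and -1.71, -2.04, -2.32 and -1.81 in HI libraries. The groups did not overlap, and LO M1 lay nearest to the HI libraries. The mean was -0.45 ± 0.73 in LO and -1.97 ± 0.27 in HI libraries (SD, n = 4 each), a difference of 1.52 (two-sided exact permutation test, p = 0.0286, which no split of 4 and 4 libraries can undercut, adjusted p = 0.0429 over the 3 ratios compared). Without any single HI library its adjusted p was 0.0571 (exact permutation test, differences from 1.41 to 1.61). The groups still did not overlap in these settings. With 4 against 3 libraries the exact permutation p moves in coarse steps and cannot fall below 0.0286 before adjustment. The HI levels of Cdc6 in this ratio may rest on few reads. For Cdt1 over Gmnn the ratio was -1.88, -2.04, -1.84 and -1.46 in LO and -1.71, 0.16, -0.54 and 0.98 in HI libraries. HI F1 lay among the LO libraries, and the other HI libraries lay above them. The difference of -1.53 had an exact permutation p of 0.0571 (two-sided, adjusted p = 0.0571), and without HI F1 it was -2.002 (exact permutation test, adjusted p = 0.0429).

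**Figure D2:**
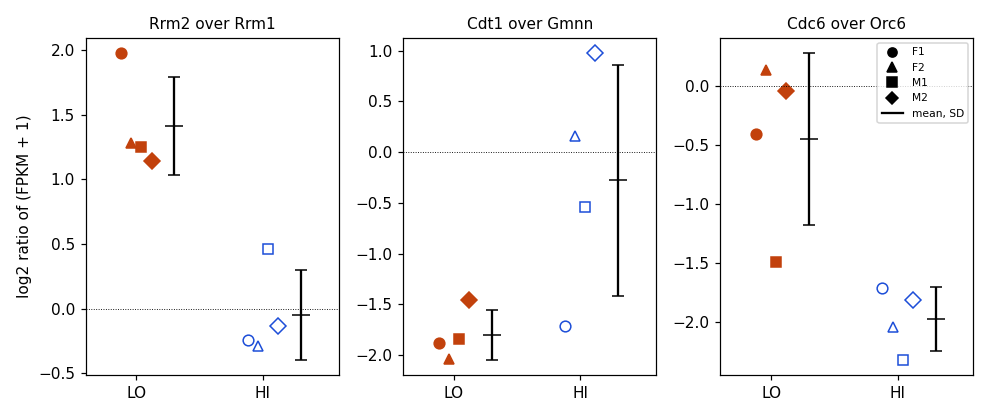
Log2 ratio of (FPKM + 1) between partners of 1 step in each library, for Rrm2 over Rrm1, Cdc6 over Orc6 and Cdt1 over Gmnn. Points are libraries, LO left of HI, and bars are the mean with the SD of 4 libraries; LO and HI do not overlap in the Rrm2 to Rrm1 and Cdc6 to Orc6 ratios, and HI F1 lies among the LO libraries in the Cdt1 to Gmnn ratio.

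Of the 6 subunits of the MCM helicase ring, which encircles and unwinds DNA, Mcm3 rose and the other 5 did not pass. Mcm3 (ENSMUSG00000041859) was at 67.4, 66.9, 57.3 and 75.9 FPKM in LO libraries, against 35.9, 38.97, 34.9 and 40.8 FPKM in HI libraries. Spread within each group was small and the groups did not overlap. The mean was 66.9 ± 7.61 FPKM in LO and 37.6 ± 2.69 FPKM in HI libraries, a 1.78-fold difference (0.81, SE 0.16, limma adjusted p = 0.0124). Without the shallowest and the deepest library, a choice made after the data were seen, its adjusted p was 0.0746 (limma, difference 0.71). Mcm5 had 52.9, 68.4, 50.6 and 84.7 FPKM in LO and 39.9, 47.02, 43.6 and 46.97 FPKM in HI libraries, and Mcm6 had 117, 172, 99.9 and 206 FPKM in LO and 87.5, 72.2, 126 and 90.8 FPKM in HI libraries. Groups were apart in Mcm5 and overlapped in Mcm6, where HI M1 lay above LO F1 and LO M1. Neither passed, with differences of 0.49 (95% interval 0.05 to 0.94, limma adjusted p = 0.186) and 0.62 (0.05 to 1.20, adjusted p = 0.199).

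The ring takes 1 copy of each subunit, and the levels of the 6 genes per transcript length were not alike. In LO libraries the order of the mean FPKM was Mcm6, Mcm3, Mcm5, Mcm4, Mcm2 and Mcm7, and the highest was 4.14-fold the lowest. In HI libraries it was Mcm6, Mcm4, Mcm5, Mcm2, Mcm7 and Mcm3, and the highest was 2.50-fold the lowest. Mcm6 was first in both groups (149 ± 49.2 FPKM in LO, 94.05 ± 22.6 FPKM in HI libraries), whereas Mcm3 was the second of the LO order and the last of the HI order. In the LO order Mcm3 and its neighbour Mcm5 (64.1 ± 15.8 FPKM) differed by less than either SD. In the HI order Mcm3 (37.6 ± 2.69 FPKM) and its neighbour Mcm7 (38.6 ± 10.02 FPKM) did so too, so that the ranks of Mcm3 are loose. Mcm6 stood above the next gene by more than its SD in both groups. Mcm2 and Mcm7 had negative differences of -0.12 (95% interval -0.65 to 0.42) and -0.13 (-0.79 to 0.53), and Mcm4 had 0.27 (-0.15 to 0.68), all within 2-fold.

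Helicase activation includes the gene with the second largest log2 difference of the set and the largest ratio of means. Mcm10 (ENSMUSG00000026669), which binds the loaded helicase and helps to switch it on, was at 11.7, 18.6, 2.54 and 12.5 FPKM in LO libraries, against 1.79, 1.30, 3.19 and 0.677 FPKM in HI libraries. LO M1 lay below HI M1, so that the groups overlapped, and the other LO libraries were well above every HI library. The mean was 11.3 ± 6.61 FPKM in LO and 1.74 ± 1.07 FPKM in HI libraries, 6.51-fold (2.01, SE 0.54, limma adjusted p = 0.0493). This call is the weakest of the 7: it was lost when any library other than LO M1 was left out (limma adjusted p from 0.0527 to 0.134), and also with a pseudocount of 0.1 (0.0610), with no low-value filter (0.102) and with sex as a covariate (0.0586).

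The other activation genes did not pass. Cdc45, which joins MCM and GINS in the active helicase, had 5.65, 13.2, 8.49 and 15.8 FPKM in LO and 9.26, 1.82, 9.70 and 6.76 FPKM in HI libraries. Gins2 had 28.03, 24.04, 5.17 and 15.2 FPKM in LO and 10.98, 12.5, 18.1 and 3.79 FPKM in HI libraries. Both groups of both genes overlapped, and LO M1 was the lowest LO library of Gins2. Differences were 0.66 (95% interval -0.41 to 1.74, limma adjusted p = 0.494) for Cdc45 and 0.57 (-0.67 to 1.81, adjusted p = 0.625) for Gins2. The 4 GINS subunits form a complex of equal parts, yet their transcripts lay at different levels. Gins4 had 40.1, 56.4, 67.7 and 58.2 FPKM in LO and 42.1, 58.8, 66.1 and 52.7 FPKM in HI libraries, a difference of 0.01 with an interval of -0.47 to 0.49 (limma adjusted p = 0.985), whereas Gins3 ranged only from 3.298 to 6.59 FPKM in LO and 3.39 to 5.94 FPKM in HI libraries. For Gins1 the values were 10.5, 0, 2.69 and 17.3 FPKM in LO and 13.99, 6.73, 6.35 and 0 FPKM in HI libraries, listed at 0 in LO F2 and HI M2, and its interval of -2.31 to 2.25 is too wide to place the difference (limma adjusted p = 0.991).

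Among the 6 primase and polymerase genes Pola1 alone passed the test. Pola1 (ENSMUSG00000006678), the catalytic subunit of polymerase alpha, stood at 13.6, 14.7, 12.2 and 11.5 FPKM in LO libraries and at 2.65, 3.96, 3.46 and 5.82 FPKM in HI libraries. Every LO library had at least 11.5 FPKM and no HI library more than 5.82 FPKM. The mean was 13.01 ± 1.42 FPKM in LO and 3.97 ± 1.35 FPKM in HI libraries, 3.27-fold (1.53, SE 0.28, limma adjusted p = 0.00873). Its promoter is the first of the sequences printed above. The accessory subunit Pola2, in the same complex, had 25.6, 24.99, 27.5 and 27.1 FPKM in LO and 19.4, 27.9, 17.7 and 26.9 FPKM in HI libraries. HI F2 was the highest of the 8, and the difference of 0.21 had an interval within 2-fold (-0.26 to 0.69, limma adjusted p = 0.633).

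The primase subunits overlapped between groups. Prim2, the large subunit, had 8.28, 10.6, 4.73 and 14.5 FPKM in LO and 10.1, 6.91, 9.57 and 9.84 FPKM in HI libraries, a difference of -0.02 (-0.77 to 0.74, limma adjusted p = 0.985). Prim1, the catalytic subunit, ranged from 6.05 to 23.2 FPKM in LO and from 6.78 to 19.0 FPKM in HI libraries. Of the replicative polymerases, Pold1, the catalytic subunit of polymerase delta, had 59.1, 58.7, 20.2 and 31.7 FPKM in LO and 29.9, 34.1, 27.7 and 35.4 FPKM in HI libraries. Both LO F libraries lay above every HI library, LO M1 lay below every HI library and LO M2 lay inside their range, and the difference of 0.28 did not pass (95% interval -0.46 to 1.02, limma adjusted p = 0.694). Pole, the catalytic subunit of polymerase epsilon, had 1.11, 5.69, 5.41 and 3.17 FPKM in LO and 2.19, 3.89, 9.53 and 0.838 FPKM in HI libraries, with the highest and the lowest value both in HI libraries (difference 0.08, interval -1.21 to 1.38, limma adjusted p = 0.960).

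None of the 8 genes of the clamp, the clamp loader and the single-strand binding complex passed the test. Of the 8, 3 had an unadjusted p below 0.05, against 2354 of all 11260 genes tested (limma). An interval within 2-fold was found in 7 of the 8 and in 4472 of all 11260 genes tested. Rfc5, a small subunit of the loader that places the clamp on DNA, had 25.2, 64.8, 28.6 and 50.6 FPKM in LO and 20.4, 13.3, 21.4 and 25.2 FPKM in HI libraries. Only HI M2, level with LO F1, reached the LO range. Its difference of 0.97 (95% interval 0.23 to 1.71) had a limma adjusted p of 0.120. Rpa2, of the complex that coats unwound DNA, had 72.00, 86.9, 63.6 and 81.7 FPKM in LO and 45.9, 55.8, 58.2 and 59.01 FPKM in HI libraries, and Rfc2, another loader subunit, had 118, 129.6, 108 and 140.0 FPKM in LO and 92.4, 96.8, 95.4 and 107 FPKM in HI libraries. In both genes all LO libraries lay above all HI libraries, by small steps. The differences of 0.46 for Rpa2 and 0.33 for Rfc2 had limma adjusted p-values of 0.141 and 0.216. Rpa3, the smallest subunit of the coating complex, had 40.4, 40.4, 66.1 and 23.2 FPKM in LO and 38.2, 49.98, 47.98 and 31.1 FPKM in HI libraries, and LO M1 and LO M2 were the highest and the lowest of the 8 (difference -0.04, interval -0.72 to 0.64, limma adjusted p = 0.959).

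Pcna, the sliding clamp and a common marker of S phase, was among the most abundant members and had a negative difference. It ranged from 89.6 to 118 FPKM in LO and from 97.4 to 132 FPKM in HI libraries, and the difference of -0.13 had a 95% interval of -0.49 to 0.22 (limma adjusted p = 0.709). The table also lists 2 processed copies of Pcna, between 0 and 2.49 FPKM in LO and between 0 and 3.21 FPKM in HI libraries, with which reads may be shared. Rpa1, the large subunit of the coating complex, had the highest mean of the 46 (202 ± 18.2 FPKM in LO, 173 ± 18.4 FPKM in HI libraries), with a difference of 0.22. Rfc3 and Rfc4 had differences of 0.13 and 0.31, with overlap in both. The detail given on Pcna, Rpa1, Tk1, Brca1, Brca2 and Chek1 goes beyond the rule for named genes and was chosen after their values were seen.

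The genes that join Okazaki fragments, the short pieces made on the lagging strand, did not pass, and neither had an unadjusted p below 0.05 (limma). Lig1, the ligase that seals them, had 41.3, 50.1, 38.95 and 41.1 FPKM in LO and 32.6, 24.5, 28.8 and 45.6 FPKM in HI libraries. Fen1, the nuclease that trims the flap of the old primer, had 20.3, 49.9, 48.2 and 62.2 FPKM in LO and 41.95, 42.97, 38.6 and 33.8 FPKM in HI libraries. HI M2 overlapped the LO libraries of Lig1, and LO F1 was the lowest of the 8 in Fen1. Intervals of -0.09 to 0.89 for Lig1 and -0.61 to 0.79 for Fen1 lay within 2-fold (limma adjusted p = 0.337 and 0.910).

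Nucleotide synthesis was the step with the most calls, 3 of 5, where 4.65% of all genes tested were called higher. Of these calls Rrm2 held in all 17 alternatives run, Rrm1 in 10 and Tyms in 6. All 5 members had an unadjusted p below 0.05, against 2354 of all 11260 genes tested (limma). Rrm2 (ENSMUSG00000020649) encodes the small subunit of ribonucleotide reductase, which makes deoxyribonucleotides and is limited to S phase and G2 by degradation of this subunit. It had 109, 99.2, 55.3 and 89.97 FPKM in LO libraries, against 12.3, 12.6, 19.4 and 15.3 FPKM in HI libraries. The lowest LO library, M1, was far above the highest HI library, which was also M1. Mean levels of 88.3 ± 23.3 FPKM in LO and 14.9 ± 3.28 FPKM in HI libraries differed 5.92-fold (2.47, SE 0.25, limma adjusted p = 0.000534), the largest difference of the 44 on the log2(FPKM + 1) scale, while by the ratio of means Mcm10 was ahead. Rrm1 (ENSMUSG00000030978), the large subunit, had 26.9, 40.3, 22.6 and 40.2 FPKM in LO libraries, against 14.8, 15.6, 13.8 and 16.9 FPKM in HI libraries. HI libraries lay close together and below every LO library. Its mean of 32.5 ± 9.11 FPKM in LO and 15.3 ± 1.30 FPKM in HI libraries gave 2.13-fold (1.004, SE 0.24, limma adjusted p = 0.0306). Leaving out LO F2, LO M2 or any HI library ended this call (limma adjusted p from 0.0538 to 0.0993).

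The subunits of ribonucleotide reductase thus both rose, and by unequal amounts. The log2 ratio of Rrm2 over Rrm1 was 1.97, 1.28, 1.25 and 1.14 in LO libraries and -0.24, -0.29, 0.46 and -0.13 in HI libraries. No LO library came near the HI libraries. The mean was 1.41 ± 0.38 in LO and -0.05 ± 0.35 in HI libraries (SD, n = 4 each), a difference of 1.46 (two-sided exact permutation test, p = 0.0286, adjusted p = 0.0429 over the 3 ratios). Without HI F2, HI M1 or HI M2 its adjusted p was 0.0571 (exact permutation test, differences from 1.38 to 1.63). The groups still did not overlap there, and the test moves in the same coarse steps as above. This pair too was taken from members chosen with earlier results known, so that its p-values are descriptions.

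Tyms (ENSMUSG00000025747), which makes the thymidine nucleotide from its uridine form, had 61.9, 45.8, 36.8 and 64.8 FPKM in LO libraries, against 22.05, 20.7, 36.96 and 25.8 FPKM in HI libraries. HI M1 lay level with LO M1, and the other libraries were apart. The mean was 52.3 ± 13.3 FPKM in LO and 26.4 ± 7.37 FPKM in HI libraries, 1.98-fold (0.96, SE 0.26, limma adjusted p = 0.0470). Without LO F1, LO F2, LO M2, HI F1, HI F2 or HI M2 it did not pass (limma adjusted p from 0.0904 to 0.122), nor with a pseudocount of 0.1 (0.0531), no low-value filter (0.0731) or sex as a covariate (0.0637). Tk1, the salvage kinase for thymidine, had 30.6, 16.5, 27.4 and 18.7 FPKM in LO and 7.73, 5.38, 18.8 and 10.03 FPKM in HI libraries. Again HI M1 reached into the LO range. Tk1 did not pass (1.17, SE 0.37, limma adjusted p = 0.0936), and without HI M1 it did (1.47, limma adjusted p = 0.0273). Dut, which removes dUTP so that uracil is kept out of DNA, ranged from 51.0 to 73.0 FPKM in LO and from 38.9 to 45.8 FPKM in HI libraries, without overlap, and its difference of 0.46 did not pass (limma adjusted p = 0.161).

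Both genes of chromatin assembly factor 1, which places histones behind the fork, had positive differences and neither passed. Chaf1a, its large subunit, had 6.07, 5.52, 4.06 and 5.14 FPKM in LO libraries, against 0.903, 1.77, 2.13 and 3.31 FPKM in HI libraries. All LO libraries lay above all HI libraries. The mean was 5.20 ± 0.847 FPKM in LO and 2.03 ± 0.997 FPKM in HI libraries (1.08, SE 0.34, limma adjusted p = 0.0898). Chaf1b had 29.9, 54.3, 31.4 and 39.9 FPKM in LO and 15.4, 25.7, 52.1 and 33.2 FPKM in HI libraries, with HI F1 the lowest and HI M1 near the highest of the 8 (0.38, interval -0.41 to 1.16, limma adjusted p = 0.610).

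Most checkpoint, fork protection and repair genes were low, and of 4 tested of 6, 0 passed. Of these 4, 1 had an unadjusted p below 0.05, against 2354 of all 11260 genes tested (limma). Clspn, the adaptor through which stalled forks activate the kinase Chk1, had 8.30, 9.63, 14.7 and 4.97 FPKM in LO libraries, against 0, 4.67, 1.96 and 8.77 FPKM in HI libraries. It was listed at 0 in HI F1, while HI M2 lay inside the LO range. Its difference of 1.45 had a wide interval of 0.01 to 2.90 (limma adjusted p = 0.237). Dtl, the substrate receptor of the ubiquitin ligase that destroys Cdt1 in S phase, had 5.48, 6.85, 1.19 and 3.93 FPKM in LO and 2.24, 1.32, 2.64 and 0.729 FPKM in HI libraries. Tipin, which holds the fork together with Timeless, had 49.1, 51.98, 44.9 and 56.2 FPKM in LO and 27.2, 47.3, 64.97 and 27.4 FPKM in HI libraries. LO M1 was the lowest LO library of both genes, and HI M1 was the highest of all 8 in Tipin. Differences were 0.88 (limma adjusted p = 0.314) for Dtl and 0.36 (0.530) for Tipin.

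Brca1, of homologous recombination, passed the filter with 1.77, 0.458, 1.76 and 1.45 FPKM in LO and 0.695, 3.32, 0 and 0.229 FPKM in HI libraries, and its difference of 0.40 had an interval of -0.72 to 1.52. Brca2, its partner in recombination, had 0.554, 0.831, 0.680 and 0.753 FPKM in LO and 0.680, 0.356, 1.07 and 0 FPKM in HI libraries, and Chek1, which encodes Chk1, had 0.912, 0.912, 0.747 and 1.77 FPKM in LO and 0.747, 0.293, 1.17 and 0.456 FPKM in HI libraries. Neither was tested, and their groups overlapped. In steps of its smallest value, scaled to each library, Chek1 stood at 2, 2, 2 and 25 in LO and 2, 1, 2 and 1 in HI libraries, so that its level outside LO M2 may rest on as few as 1 or 2 reads.

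**Figure D3:**
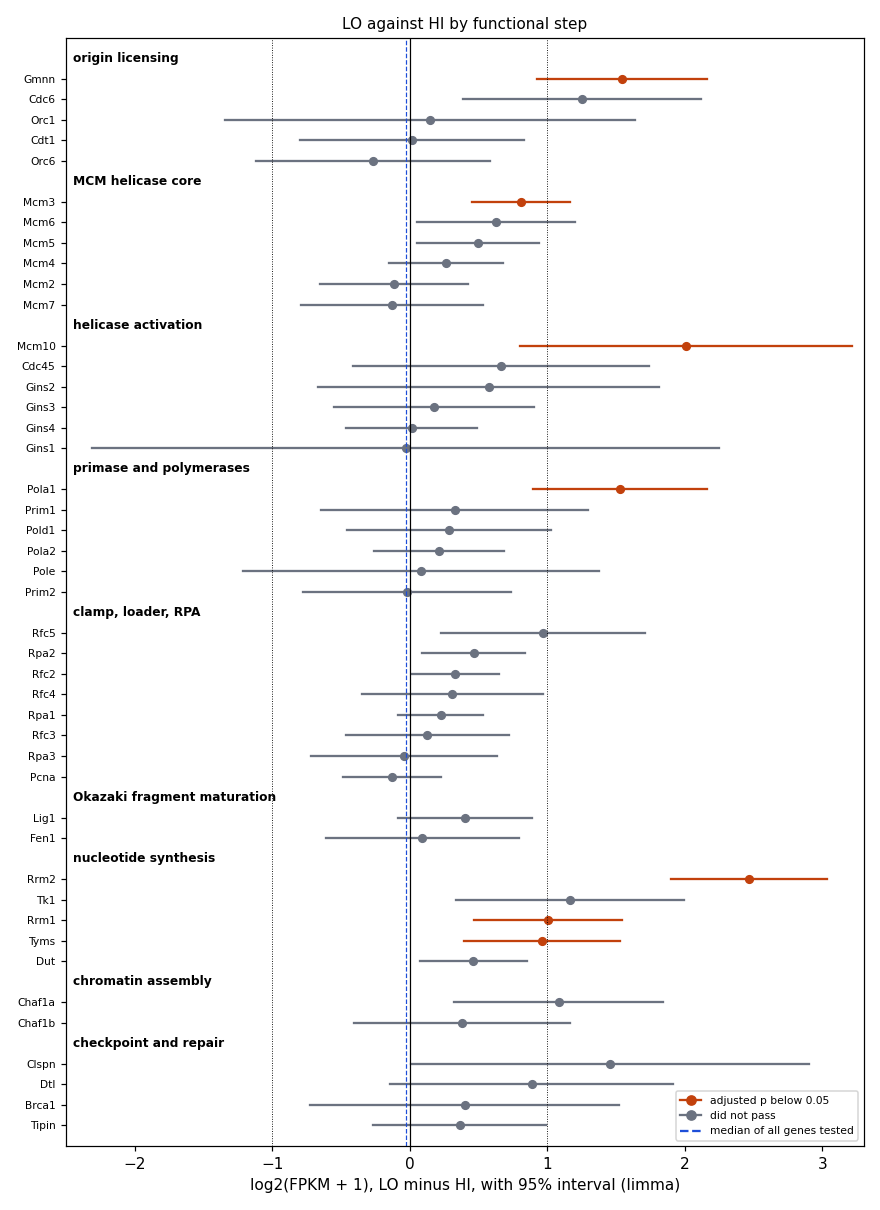
Difference in log2(FPKM + 1), LO minus HI, for the 44 tested genes by functional step. Points are limma estimates with 95% intervals, orange for the 7 genes with an adjusted p below 0.05, all to the right of 0, and grey for the others; Rrm2 is at 2.47 and the lowest, Orc6, at -0.27.

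By step, the median difference was 1.004 for the 5 nucleotide synthesis genes, 0.73 for the 2 chromatin assembly genes, 0.64 for the 4 tested checkpoint genes, 0.38 for the MCM ring, 0.37 for helicase activation, 0.27 for clamp, loader and coating complex, 0.25 for primase and polymerases, 0.25 for Okazaki fragment genes and 0.15 for licensing. Calls lay in 5 of the 9 steps. Of the 44 intervals, 20 lay within 2-fold in both directions, all of them of members that did not pass, and 24 reached 2-fold or beyond. Over all genes tested, 4472 of 11260 intervals lay within 2-fold. Precision followed the level. The 18 tested members below 20 FPKM had a median SE of 0.45 and 2 calls, and the 26 at or above 20 FPKM had a median SE of 0.25 and 5 calls. For 13 members (Cdc45, Chaf1a, Fen1, Gins2, Lig1, Mcm7, Orc1, Orc6, Pole, Rfc2, Rfc4, Rfc5 and Tk1) the table also holds a gene model that overlaps an exon on the other strand, and whether counting used strand is not given. None of the 7 called members is among them.

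The LO libraries were not alike. LO M1 had the lowest LO value in 26 of the 46 genes and in 6 of the 7 called, and LO M2 had the highest in 18. Among HI libraries HI M1 had the highest value in 20 of the 46. LO M2 was also the deepest and HI M1 the shallowest library, and the part of depth in these ranks was not tested. Without both, 4 members were called, Rrm2, Gmnn, Pola1 and Tk1 (limma), and the median difference was 0.46. Leaving out single libraries gave 4 called members without LO F2, LO M2, HI F2 or HI M2, and 5 to 7 without the others. Rrm2, Gmnn and Pola1 were called in all 17 alternatives run.

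No member passed the test for sex. Of the 44, 0 were called between Male and Female libraries, where 9 of all 11260 genes were (0.0799%, limma, 4 against 4 libraries). Pold1 alone had an unadjusted p below 0.05 (limma), 2.27% of the members against 3.81% of all genes. For the difference of LO minus HI between the sexes, also 0 members were called. Of all 11260 genes 2 passed (0.0178%, limma, 2 libraries for each sex and group). Again Pold1 alone had an unadjusted p below 0.05 (limma), 2.27% of the members against 3.83% of all genes. A test that was not passed does not show that the sexes were alike.

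Genes of the same pathways that are not among the 46 give the surroundings of these values. Of 29 tested genes of origins and forks outside the set, 0 were called (limma), and their median difference was -0.24. Of all genes tested, 4.65% were called higher and 3.64% lower. An unadjusted p below 0.05 was found in 6 of the 29 and in 2354 of all 11260 genes tested (limma). Mtbp, which works with treslin to fire origins, had 18.7 ± 7.96 FPKM in LO and 7.01 ± 4.22 FPKM in HI libraries (limma adjusted p = 0.0714), and Dna2, a flap nuclease and helicase, 2.94 ± 0.854 FPKM in LO and 0.727 ± 0.555 FPKM in HI libraries (limma adjusted p = 0.0721). The other 2 with the smallest p had negative differences. Orc2, a core ORC subunit, had 11.8 ± 2.83 FPKM in LO and 19.2 ± 4.13 FPKM in HI libraries, and Timeless, the partner of Tipin, 20.03 ± 9.71 FPKM in LO and 34.6 ± 10.5 FPKM in HI libraries (limma adjusted p = 0.181 and 0.188).

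Of 25 other nucleotide synthesis genes 0 were called higher and 1 lower (4.0%, against 3.64% of all genes), and the median difference was -0.30. Shmt1, the cytosolic serine hydroxymethyltransferase of folate metabolism, stood at 6.71, 6.92, 6.73 and 15.4 FPKM in LO libraries, against 51.1, 30.00, 59.2 and 33.3 FPKM in HI libraries. The highest LO library was lower than the lowest HI library (-2.19, SE 0.33, limma adjusted p = 0.00312). Next by p were the folate enzyme Mthfd1 (19.6 ± 6.84 FPKM in LO, 35.3 ± 4.02 in HI libraries) and the guanine nucleotide enzymes Impdh1 (70.9 ± 36.2 in LO, 151 ± 46.1 in HI libraries) and Impdh2 (37.4 ± 2.92 in LO, 59.6 ± 12.7 in HI libraries), with negative differences that did not pass (limma adjusted p = 0.0650, 0.0669 and 0.0793). The reductase and thymidylate enzymes among the members thus had positive differences, and the listed enzymes of folate and purine synthesis with the smallest p had negative ones.

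Chromatin duplication genes outside the set had 2 calls among 13, both higher (15.4%, against 4.65% of all genes), and a median of 0.35. Slbp, which binds the stem loop of histone messages, had 229, 225, 189.9 and 234 FPKM in LO and 137, 110.1, 105 and 129 FPKM in HI libraries (0.87, limma adjusted p = 0.00520). Uhrf1, which keeps DNA methylation through replication, had 32.1, 27.2, 13.4 and 17.9 FPKM in LO and 5.59, 4.57, 7.38 and 9.55 FPKM in HI libraries (1.57, limma adjusted p = 0.0183). The groups did not overlap in either gene. Hells, a chromatin remodeller, had 224, 17.5, 18.4 and 15.4 FPKM in LO and 9.85, 1.90, 0.992 and 4.85 FPKM in HI libraries, with LO F1 far above the rest, and did not pass (limma adjusted p = 0.0669), and nor did the lamin B receptor Lbr (169.7 ± 15.5 FPKM in LO, 121 ± 13.6 FPKM in HI libraries, 0.0735). Of 22 tested checkpoint and repair genes 1 was called, and it was higher (4.5%, against 4.65% of all genes), with a median of 0.21. Fancd2, of the crosslink repair pathway, had 2.71, 3.99, 8.77 and 2.51 FPKM in LO libraries and was listed at 0 in all 4 HI libraries (limma adjusted p = 0.00574). It met the low-value filter through the LO libraries only, so that its call is no support for the list. Without LO F1, LO M1 or LO M2, in turn, 0 of these genes passed. Fancd2 could not be tested there, since too few libraries were left at FPKM of 1 or higher to meet the filter. Pclaf, a PCNA-binding protein (20.3 ± 11.9 FPKM in LO, 5.67 ± 1.67 FPKM in HI libraries), and Exo1, a repair exonuclease, followed (limma adjusted p = 0.0515 and 0.106).

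G1/S regulators had 5 calls among 29, all higher (17.2%), and a median of 0.51. Mitosis genes had 16 among 20, all higher (80.0%), and a median of 2.17. Over all genes tested the share called higher was 4.65%. Rbl2, the pocket protein p130 of quiescent cells, had 80.6 ± 21.8 FPKM in LO and 22.4 ± 0.498 FPKM in HI libraries (SD, n = 4 each; limma adjusted p = 0.00111). Ccna2, cyclin A of S phase and G2, had 44.5 ± 21.5 FPKM in LO and 5.51 ± 2.18 FPKM in HI libraries (0.00158), and the kinase inhibitor Cdkn2c 32.4 ± 6.37 in LO and 7.38 ± 2.51 in HI libraries (0.00200). E2f8, a repressor of E2F targets, had 11.01, 3.66, 3.004 and 8.53 FPKM in LO and 0, 0, 0.632 and 0.492 FPKM in HI libraries (0.00762), and it too met the low-value filter through the LO libraries only. Without any single LO library 3 G1/S regulators were called, and without HI F1 7 were. E2f8 could not be tested without an LO library, since too few libraries then met the filter. Of the mitosis genes Cdk1, the mitotic kinase, was 10.3-fold higher in LO cells (71.6 ± 20.7 FPKM in LO, 6.95 ± 3.73 FPKM in HI libraries, limma adjusted p = 0.000619). The proliferation marker Mki67 was 14.5-fold higher, Plk1 6.54-fold and Birc5 9.64-fold (limma adjusted p = 0.000901, 0.00145 and 0.00145). Against the mitosis genes, of which all 20 had positive differences, the replication members had 37 of 44 positive and a median of 0.37. The lists were read side by side, and no test between them was made.

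**Figure D4:**
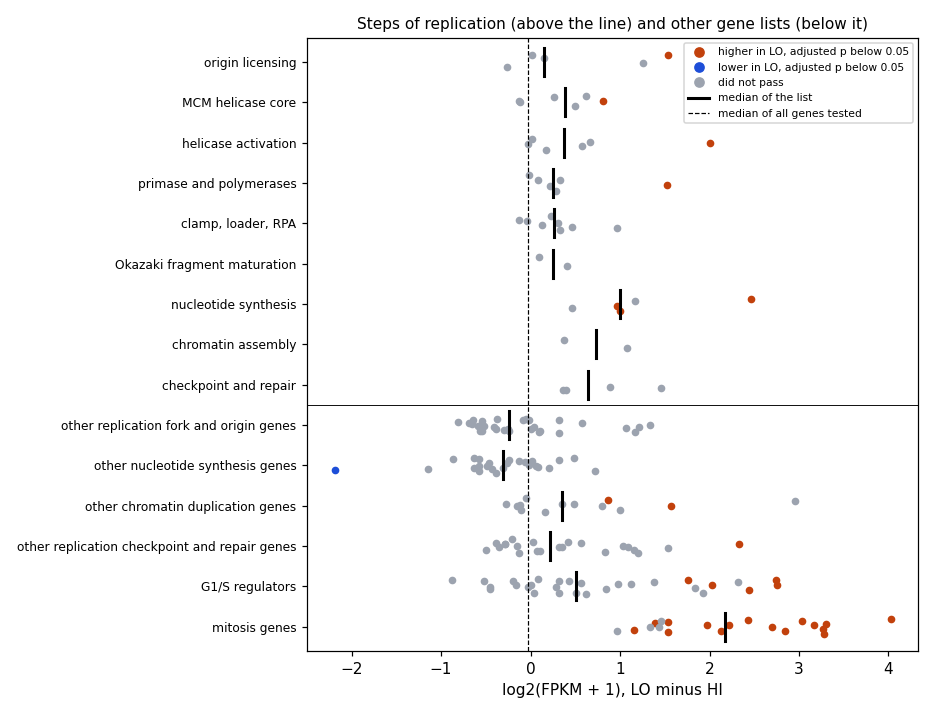
Difference in log2(FPKM + 1), LO minus HI, of every tested gene in the 9 functional steps of the 46 genes and in 6 other lists, with each median as a line. Orange points passed the limma threshold and were higher, the blue point, Shmt1, passed and was lower, and grey points did not pass; the mitosis genes lie highest, with a median of 2.17, nucleotide synthesis among the members has 1.004, and the other fork and origin genes lie around -0.24.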

How the data were processed

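Spleen cells were enriched for CD4 T cells, sorted by flow cytometry and made into SmartSeq2 libraries, per the labels' protocols, and each library was placed in LO or HI by its title. The design text of the series is about single cells of other mice and played no part in the grouping. FPKM values were deposited by the authors, with 1 column per library and no pooling, and were used as deposited. They come from Cuffnorm, per the name of the deposited table, which scales libraries to each other. The submitters' processing notes name the builds mm9 and NCBIM37 and the tools HISAT2, cutadapt and FastQC. The sources used here give no scaling method, annotation or use of strand. Read counts were not recovered, so no count test was run and no intervals for counting error are given.

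Symbols were matched by Ensembl ID for 31840 of 36811 models. A gene was tested where 4 or more of the 8 libraries had FPKM of 1 or higher. The fit used log2(FPKM + 1) and limma 3.58.1 under R 4.3.3 (eBayes with a variance trend) over all 8 libraries without covariates, with Benjamini-Hochberg adjustment over 11260 genes at 0.05. Sex and its interaction with reporter level came from a model with a mean for each sex in each group, 2 libraries apiece. LO and HI libraries of 1 label may share an animal, so that p-values for sex may be too small. Ratios between partners were compared with two-sided exact permutation tests. Relative depth was the most frequent ratio of low values to those of HI F1. The fit was tested on simulated data. Values in every library are given for the 3 members of each step with the smallest p and the 6 with the largest p, and of other lists the 4 genes with the smallest p are named, of which 1 is not reported here. The members and lists were chosen with earlier results of these data known, and the ratio pairs were taken from these members. The counts and the ratio p-values are therefore descriptions and not independent evidence. Alternatives were the omission of each library in turn, upper quartile scaling or quantile normalization, a minimum FPKM of 5 or none, a pseudocount of 0.1, sex as a covariate, robust eBayes, the label as a replicate block, and, added after the data were seen, leaving out the shallowest and the deepest library together.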

Additional observations from a re-analysis of the deposited data

Results flagged for a closer look

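Over the 46 genes and both groups, 92 sets of 4 libraries were searched for a library far from the other 3, and 2 were found; chance gives about 1 in 20 such sets. Chek1 was 1.77 FPKM in LO M2, the deepest library, against 0.747 to 0.912 FPKM in the other LO libraries. Cdc6 was 4.84 FPKM in HI F1, against 1.59 to 1.86 FPKM in the other HI libraries, and Cdc6 passed the threshold without that library (limma adjusted p = 0.0386). The cause of either was not tested.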

How the results depend on the processing

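Calls among the 44 members numbered 7, and 4 to 7 when 1 library was left out (4 without LO F2, LO M2, HI F2 or HI M2); 0 were lower in any alternative. Over all genes 934 were called, 586 to 754 with 1 library left out (586 without LO F2), and 545, with 4 members, without the shallowest and the deepest library. Rrm2, Gmnn and Pola1 were called in all 17 alternatives, Mcm3 in 16, Rrm1 in 10, Tyms in 6 of 17 and Mcm10 in 4 of 16. Whether the labels F1, F2, M1 and M2 pair the libraries is not known: deviations from the group means correlated at 0.0149 to 0.113 between LO and HI libraries of 1 label, and LO F2 did not correlate best with its own label, as the other LO libraries did. With the label as a replicate block 771 genes and 5 members were called, without Mcm10 and Tyms (limma adjusted p = 0.107 and 0.10002), and the ratios of Rrm2 over Rrm1 (1.46), Cdc6 over Orc6 (1.52) and Cdt1 over Gmnn (-1.53) each had an exact sign-flip p of 0.125, the smallest it can give. With 1 library left out these ratios ranged from 1.28 to 1.63, 1.33 to 1.87 and -2.002 to -1.11.

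With 1 library left out, called genes numbered 3 to 7 for G1/S regulators, 1 to 3 for other chromatin genes, 1 to 2 for other nucleotide genes, 0 to 1 for other checkpoint genes and 0 to 1 for other fork genes. E2f8 and Fancd2 met the filter through LO libraries only. Leaving out any LO library therefore took both out of the test. G1/S calls were 3 at FPKM of at least 5 and 3 without the shallowest and the deepest library. Other fork genes had 1 call with upper quartile scaling, other checkpoint genes 2 with it and 2 with robust eBayes, and 0 without the shallowest and the deepest library, and other nucleotide genes 2 without these and 2 with the replicate block. The median of the tested checkpoint members was 1.23 with a pseudocount of 0.1 and 0.46 to 1.23 with 1 library left out (1.23 without LO M1). That of the licensing members was 0.75 without the shallowest and the deepest library and 0.065 to 0.66 with 1 left out (0.66 without HI M1).

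The sign turned only in members that did not pass. With 1 library left out the differences ranged from -0.33 to 0.19 for Cdt1, -0.10 to 0.43 for Fen1, -0.84 to 0.77 for Gins1, -0.11 to 0.16 for Gins4, -0.27 to 0.052 for Mcm2, -0.29 to 0.12 for Mcm7, -0.30 to 0.66 for Orc1, -0.47 to 0.058 for Orc6, -0.31 to 0.53 for Pole, -0.24 to 0.24 for Prim2, -0.0053 to 0.32 for Rfc3 and -0.28 to 0.21 for Rpa3. Upper quartile scaling gave 0.019 for Gins1 and 0.0081 for Prim2. Without the shallowest and the deepest library Cdt1 was at -0.061, Gins3 at -0.013, Rpa3 at 0.28 and Fen1 at -0.10. For these changes the cause was not tested. The median SE was 0.45 for members below 20 FPKM, against 0.25 at higher levels, and the part of depth in this was not tested.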
